A study of Bos taurus with 11 samples.

Results

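The genes described here are the AP-1 and EGR immediate-early genes FOS, FOSB, FOSL1, FOSL2, JUN, JUNB, JUND, EGR1, EGR2 and ATF3. Members were every non-control probe of a bovine oligonucleotide array whose gene name in the scanner files was 1 of these 10 symbols. This gave 23 probes of 9 genes, among 43653 non-control probes with 25325 distinct names, and EGR2 had no probe under its symbol. Endometrium, the lining of the uterus, was biopsied from 11 cows on day 7 of the oestrous cycle, and each cow had 1 array of total RNA. The 5 subfertile cows had failed to conceive at 3 artificial inseminations or embryo transfers in a row, although no genital abnormality was found and their cycles appeared normal. The 6 fertile cows had conceived within 3 such attempts before the biopsy and again at the embryo transfer that followed it. The labels name no treatment, and breed, age and the time between biopsy and preservation of the tissue were not given in the sources used here. Values are log2 processed signals minus the 75th percentile of the array, and differences are subfertile minus fertile, ± the standard error, with n = 5 subfertile and n = 6 fertile cows.

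Immediate-early genes are transcribed within minutes of a stimulus, without new protein synthesis, through kinase cascades that act on factors already bound at their promoters. FOS and JUN family proteins pair through a leucine zipper to form AP-1, while EGR proteins bind DNA through zinc fingers. Their mRNAs are short-lived, and in tissues they are known to rise quickly with handling, injury or delay before preservation, as well as with growth factors and hormones.

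Arrays of the groups differed in brightness and in when they were scanned. The median processed signal was 54.3 to 92.7 on subfertile arrays and 161 to 452 on fertile arrays, and 64.5% to 74.2% of probes were well above background on subfertile arrays against 72.0% to 77.4% on fertile arrays. All subfertile arrays were scanned on 1 day, from 3 slides, and the 10 arrays with a known slide gave 0 slides and 0 days that held both groups. Slide or scan day and group therefore cannot be told apart, and associations between genes were taken on values from which each group's mean had been subtracted. Of the marker genes, 16 of 18 epithelial and 13 of 14 stromal were well above background on enough arrays to be tested. The same filter passed 31877 of all 43653 probes. It also passed 9 of 9 macrophage, 9 of 9 T and NK, 8 of 8 smooth muscle and 9 of 10 endothelial genes, so these counts do not single out a tissue. A biopsy mixes cell types, so that fewer cells of a type and less RNA per cell cannot be told apart.

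FOS, FOSB, FOSL2, JUN and EGR1 each had a probe 1, the most 5′ of the gene's probes, that appears to be coding sequence. This was judged from an open reading frame and the known proteins, since no annotation of this build was used. These probes are printed because readings of more 5′ and more 3′ probes of a gene are compared here. Such readings agreed closely for some genes and poorly for others. The sequences are those of the array design, 5′ to 3′, with positions on assembly Btau_3.1 as given in the scanner files. The FOS and FOSL2 probes appear to lie over the leucine zipper region, where both genes encode related protein, and capitals mark the bases identical between them in their best ungapped stretch.

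FOS probe 1: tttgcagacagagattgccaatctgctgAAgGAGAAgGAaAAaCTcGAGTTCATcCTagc

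FOSL2 probe 1: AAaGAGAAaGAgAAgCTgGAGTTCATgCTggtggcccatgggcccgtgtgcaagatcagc

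FOSB probe 1: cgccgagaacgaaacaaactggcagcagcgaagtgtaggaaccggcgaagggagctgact

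JUN probe 1: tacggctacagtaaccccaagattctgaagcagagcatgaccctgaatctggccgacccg

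EGR1 probe 1: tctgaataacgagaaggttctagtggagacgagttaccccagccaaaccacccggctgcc

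FOS probe 1 is at chr10:88961882-88961941 (plus strand), FOSL2 probe 1 at chr11:73422231-73422290 (minus strand), FOSB probe 1 at chr18:52859536-52859595 (plus strand), JUN probe 1 at chr3:93619194-93619253 (plus strand) and EGR1 probe 1 at chr7:49143577-49143636 (plus strand). The marked stretch spans 29 bases, of which 23 are identical (79.3%). The readings of these FOS and FOSL2 probes had r = -0.45 with each other over the 11 arrays after the group means were removed. The probes of a gene are numbered here from its 5′ end.

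Across the family, 20 of the 23 probes, from 8 genes, were well above background on at least 5 arrays and were tested. FOSB probe 3, FOSL2 probe 6 and JUND probe 1 were higher in subfertile cows, 0 were lower and 17 did not pass (limma, Benjamini-Hochberg adjusted p below 0.05 over all 31877 tested probes). Of all tested probes, 14.8% were called higher and 7.4% lower (22.2% in either direction), so 3 of 20 is close to the share of the whole array. Groups did not overlap for 2 of the 20 probes, both higher in subfertile cows, against 9.61% of all tested probes that separated the groups as higher, 3.92% as lower and 13.5% in all. The median difference was 0.68 over the tested member probes and 0.07 over all tested probes, with 18 positive and 2 negative values. Since several probes read the same gene, these counts are not of independent items. The lean toward subfertile cows rested in part on subfertile cow 5. Without it the brightest tested probes differed by -0.19 (FOS), 2.23 (FOSB), 0.20 (FOSL2), 0.04 (JUN), -0.41 (JUNB), 1.28 (JUND), -0.18 (EGR1) and 0.49 (ATF3). Each of these had to lie below its value over all 11 cows, because subfertile cow 5 was the highest of its group at each of these probes. Only the size of the fall was open. The differences of FOS, JUNB and EGR1 changed sign, while those of FOSB, FOSL2, JUN, JUND and ATF3 stayed positive.

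Most members other than FOSL2 and JUND differed widely between cows of the same group. The within-group standard deviation of a probe had a median of 0.28 and a 95th percentile of 0.80 over all tested probes, and 12 of the 20 member probes exceeded that percentile, while FOSL2 probes 3 to 6 lay below that median, at 0.18 to 0.26. FOS, the FOS-family subunit induced first in many cells, was the most variable of them. Its 3 probes had within-group standard deviations of 2.61, 2.51 and 2.41, which placed them 17th, 20th and 24th of 31877.

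**Figure D1:**
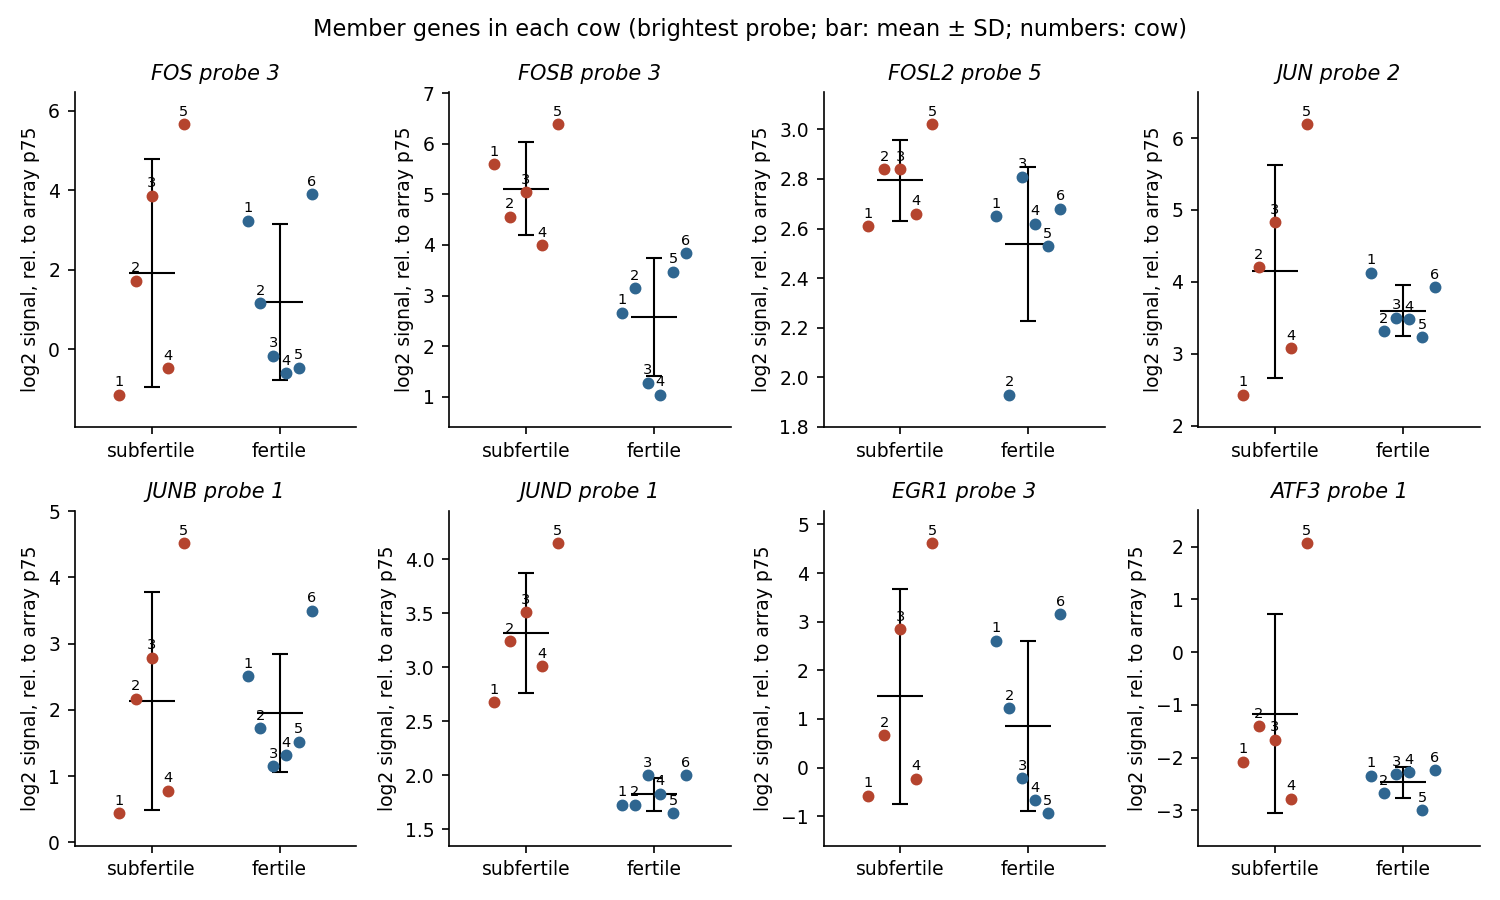
Log2 signal relative to the 75th percentile of the array (vertical axis) in each subfertile cow (red, left) and each fertile cow (blue, right) for the brightest tested probe of 8 genes, with cow numbers and bars for the mean ± SD (n = 5 and 6). FOS, EGR1 and JUNB span wide and overlapping ranges in both groups, while JUND and FOSB probe 3 do not overlap; vertical scales differ between panels.

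FOS probe 3, the most 3′ and brightest, read -1.15, 1.72, 3.86, -0.49 and 5.65 in subfertile cows 1 to 5, against 3.23, 1.16, -0.17, -0.60, -0.47 and 3.89 in fertile cows 1 to 6. Subfertile cows 3 and 5 and fertile cows 1 and 6 were high, and the groups overlapped across most of their range. From the lowest cow to the highest the span was 6.79 on the log2 scale, or 111-fold. Means were 1.92 ± 2.87 in subfertile and 1.17 ± 1.96 in fertile cows (SD), and the difference of 0.75 ± 1.28 was smaller than the spread within either group (limma adjusted p = 0.708). The 5′ probe gave the same order of subfertile cows, with -6.21, -3.16, -0.72, -5.34 and 1.31 in subfertile cows, against -1.78, -3.80, -5.42, -5.89, -5.89 and -1.20 in fertile cows. Its difference was 1.17 ± 1.39 (adjusted p = 0.575), and that of the middle probe was 0.88 ± 1.34 (adjusted p = 0.670). Between any 2 of the 3 FOS probes r was 1.0, so the spread of FOS was read alike by all 3 probes.

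EGR1, a zinc-finger activator that shares many inducers with FOS, followed the FOS order of subfertile cows and nearly that of fertile cows. Probe 3 read -0.58, 0.66, 2.85, -0.23 and 4.62 in subfertile cows, against 2.61, 1.22, -0.22, -0.67, -0.94 and 3.15 in fertile cows, a 47.0-fold span. Again the subfertile cows ran 5, 3, 2, 4, 1 from high to low, and fertile cows 6, 1 and 2 led their group, with overlap between groups. The difference was 0.60 ± 1.05 (limma adjusted p = 0.709). EGR1 probe 2 differed by 1.20 ± 0.69 (adjusted p = 0.229). The 5′ probe of EGR1 was well above background on only 2 subfertile and 3 fertile arrays and differed by 0.80 ± 0.79 (adjusted p = 0.498). Correlations between the EGR1 probes were 0.93 to 0.97.

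JUNB, a JUN-family subunit that is itself an immediate-early gene, had 1 probe, which read 0.44, 2.17, 2.79, 0.78 and 4.52 in subfertile cows and 2.51, 1.72, 1.15, 1.32, 1.52 and 3.50 in fertile cows. It was again highest in subfertile cow 5 and fertile cow 6, the groups overlapped, and the difference was 0.19 ± 0.69 (limma adjusted p = 0.871). JUN, the main dimer partner of FOS, read 2.43, 4.20, 4.83, 3.08 and 6.19 in subfertile cows and 4.13, 3.31, 3.50, 3.48, 3.23 and 3.93 in fertile cows with its brightest probe, probe 2. Its values spread widely over subfertile cows (SD 1.48) and narrowly over fertile cows (SD 0.36), whose range lay inside that of the subfertile cows. The differences were 0.98 ± 0.58 for JUN probe 1, 0.55 ± 0.55 for probe 2 and -0.02 ± 0.53 for probe 3 (adjusted p = 0.242, 0.499 and 0.986), and the 3 probes correlated at 0.98 with each other.

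ATF3, a stress-induced factor that can pair with JUN proteins, stood apart in a single animal. It read -2.08, -1.40, -1.66, -2.78 and 2.07 in subfertile cows and -2.34, -2.67, -2.31, -2.27, -3.00 and -2.24 in fertile cows. Subfertile cow 5 lay well above the other 10 cows, and the others overlapped. The difference of 1.30 ± 0.68 did not pass (limma adjusted p = 0.188).

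JUND, the JUN-family subunit that is usually present in resting cells, had the smallest adjusted p of the tested members. Its only probe, at chr7:4840879-4840938 (plus strand, Btau_3.1), read 2.68, 3.24, 3.51, 3.01 and 4.15 in subfertile cows, against 1.73, 1.73, 2.0, 1.83, 1.65 and 2.0 in fertile cows. Every subfertile cow was above every fertile cow. Means were 3.32 ± 0.56 in subfertile and 1.82 ± 0.15 in fertile cows (SD), a difference of 1.49 ± 0.22, or 2.81-fold (limma adjusted p = 0.00145). JUND kept its call when slide (adjusted p = 0.00677) or scan day (adjusted p = 0.0441) was entered as a random block. Neither block separates slide or day from group, because each held 1 group only. Some cell type markers were also called higher in subfertile cows, as were 14.2% of all genes at 1 probe each. They included 7 of 16 epithelial, 3 of 7 ciliated and 2 of 8 smooth muscle genes, with list median differences of 0.49, 1.13 and 0.86. Other lists had 2 of 9 endothelial, 2 of 13 stromal, 1 of 9 T and NK and 0 of 9 macrophage genes higher. The B and plasma, neutrophil and erythroid lists had 1 of 4, 1 of 5 and 1 of 4. Called lower were 2 stromal and 1 macrophage genes. Not every epithelial gene was higher, as with CDH16 (-1.07), MUC1 (-0.08) and CLDN7 (-0.04), none of which passed. The mean of the epithelial list was 1.04 to 1.31 in subfertile and 0.43 to 1.16 in fertile cows, that of the ciliated list -2.47 to -0.47 in subfertile and -2.94 to -1.93 in fertile cows, and that of the smooth muscle list 2.56 to 4.94 in subfertile and 1.12 to 3.55 in fertile cows. The part of cell composition in the differences of JUND, FOSB, FOSL2 and EGR2 was not tested.

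FOSB, a FOS-family subunit with a truncated splice form known from brain, differed between its probes. Probe 3, at chr18:52863095-52863154 (plus strand, Btau_3.1), read 5.59, 4.56, 5.04, 4.0 and 6.38 in subfertile cows, against 2.66, 3.14, 1.28, 1.04, 3.47 and 3.84 in fertile cows. The groups did not overlap, although subfertile cow 4 and fertile cow 6 were only narrowly apart. Its means were 5.12 ± 0.92 in subfertile and 2.57 ± 1.16 in fertile cows (SD), and the difference was 2.55 ± 0.57, or 5.84-fold (limma adjusted p = 0.00989). This call was lost with scan day as a random block (difference 2.56, adjusted p = 0.109). Probe 2 of FOSB, 909 bases upstream on the genome, read -1.58, -2.05, -1.19, -2.36 and -0.13 in subfertile cows and -2.42, -1.83, -2.56, -2.75, -1.86 and -2.28 in fertile cows. There the groups overlapped, and the difference of 0.82 ± 0.35 did not pass (adjusted p = 0.113). Correlations between the FOSB probes were 0.63 to 0.76. The 5′ probe was well above background on 2 subfertile and 2 fertile arrays and was not tested. It read -6.43, -6.11, -4.05, -7.44 and -2.31 in subfertile cows and -6.40, -7.31, -8.36, -7.44, -7.91 and -5.16 in fertile cows, highest in the cows that were highest for FOS.

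**Figure D2:**
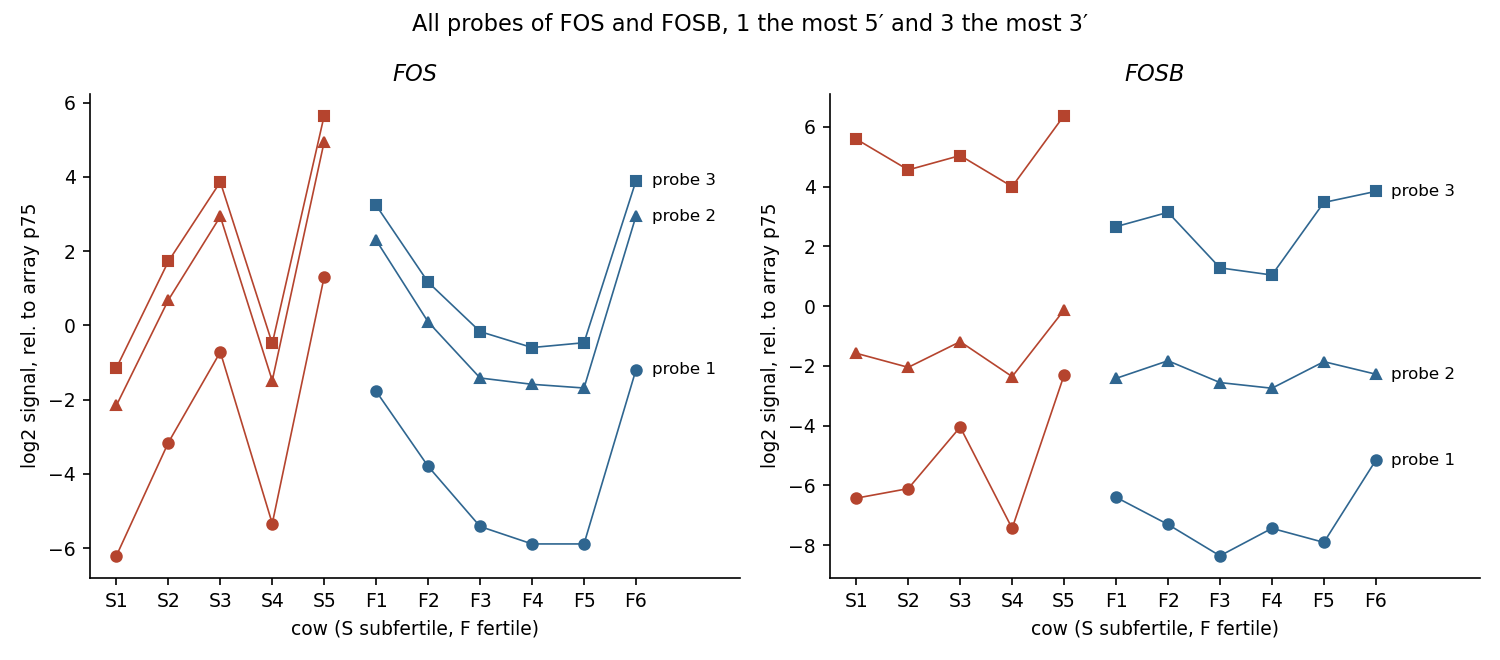
Log2 signal relative to the 75th percentile of the array (vertical axis) for the 3 probes of FOS (left) and of FOSB (right) in subfertile cows 1 to 5 (S1 to S5, red) and fertile cows 1 to 6 (F1 to F6, blue). The FOS probes run in parallel (r = 1.0), while FOSB probe 3 separates the groups and FOSB probe 1, not well above background on 7 of the 11 arrays, is highest in S5, S3 and F6, as FOS is in each group; heights are not comparable between probes.

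FOSL2, a FOS-family member with slower induction, varied little among cows at probes 3 to 6. Probes 1 and 2 of FOSL2 had within-group standard deviations of 0.52 and 0.35, above the median of 0.28 over all tested probes. Its brightest probe, probe 5, read 2.61, 2.84, 2.84, 2.66 and 3.02 in subfertile cows and 2.65, 1.93, 2.81, 2.62, 2.53 and 2.68 in fertile cows, a 2.13-fold span with overlapping groups (0.26 ± 0.15, limma adjusted p = 0.251). The most 3′ probe, FOSL2 probe 6, read 1.46, 1.61, 1.57, 1.52 and 1.70 in subfertile cows and 0.81, 0.54, 1.19, 1.02, 1.09 and 1.49 in fertile cows. Fertile cow 6 lay just above subfertile cow 1 and below the other subfertile cows, and the difference was 0.55 ± 0.15, or 1.46-fold (adjusted p = 0.0249). That call did not hold with median centring of the arrays (adjusted p = 0.0761), with slide or scan day as a block (0.107 and 0.202), or without fertile cow 1, subfertile cow 2 or subfertile cow 5 (0.0536, 0.0566 and 0.0584). The other 5 FOSL2 probes differed by -0.04 to 0.33, and none passed. FOSL2 probes agreed poorly with each other, with r from -0.46 (probes 2 and 6) to 0.80 (probes 2 and 3), and probe 1 had r = 0.17 with probe 5 and -0.01 with probe 6. FOSL1, a further FOS-family member, had 2 probes, neither well above background on any array, so that no level or difference is given for it.

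EGR2, a relative of EGR1, was not named by symbol on the array, but 2 probes carried its accession or description. They fall outside the members and are described separately. The first read -1.01, -1.30, -1.48, -1.54 and -1.32 in subfertile cows and -2.64, -2.30, -2.53, -2.46, -2.26 and -2.09 in fertile cows. It separated the groups with a difference of 1.05 ± 0.13, or 2.07-fold (limma adjusted p = 0.000678), and its order of cows was not that of EGR1. The second EGR2 probe was well above background on 1 array only, that of fertile cow 1.

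The question whether these genes vary together among arrays was put to the 8 tested genes, each by its brightest tested probe, with group means removed. Pearson's r over the 28 gene pairs had a median of 0.69 and ran from -0.13 to 0.98. The median over all 168113616 pairs of tested genes was 0.00, and r exceeded 0.8 in 35.7% of member pairs against 0.788% of all pairs. By exact permutation of cows within groups (86400 orders, two-sided, adjusted over the 28 pairs), 18 pairs passed by Pearson's r and 14 by Spearman's rho, every one positive. The 18 fell to 9, 8, 8, 7 and 6 without subfertile cows 1 to 5, and to 7 with values centred on scan day. In the 6 fertile cows alone 0 pairs passed after adjustment and 3 had an exact p below 0.05, where the smallest p possible was 0.00139. No r was computed in the 5 subfertile cows.

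**Figure D3:**
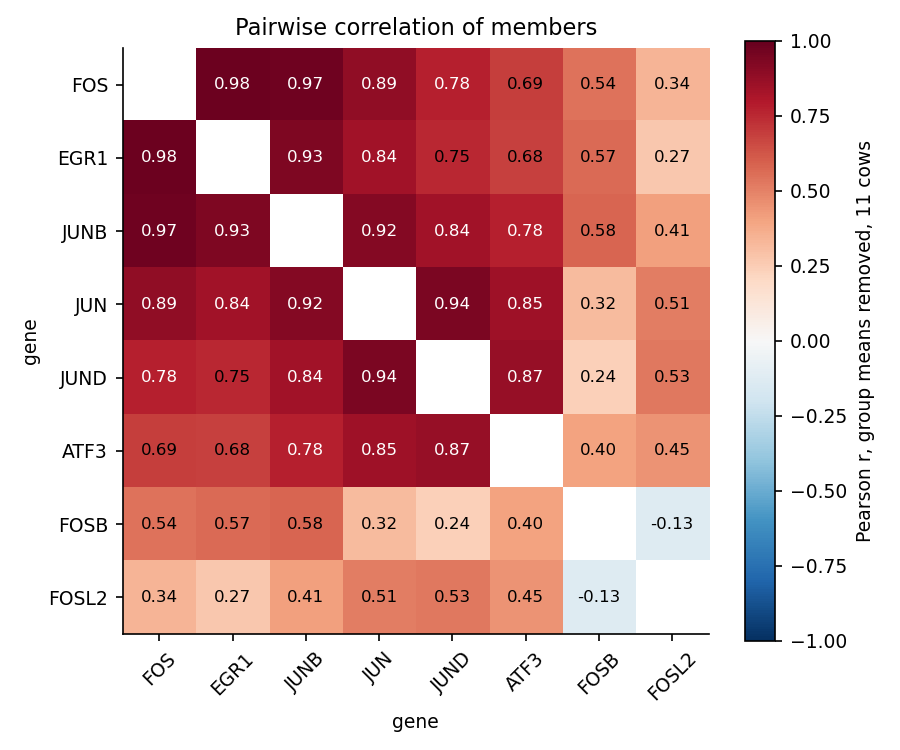
Pearson's r between the brightest tested probes of 8 genes over 11 cows, with the mean of each group removed; the colour runs from -1 (blue) to 1 (red) and rows and columns are genes. FOS, EGR1, JUNB and JUN form a block with r of 0.84 to 0.98, and FOSB and FOSL2 have the lowest values.

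By exact p, the relations among FOS, EGR1, JUNB and JUN were the strongest, although by r that of JUN and JUND (0.94) exceeded several of them. FOS and EGR1 had r = 0.98 and rho = 0.97 (exact permutation p = 2.31e-05, adjusted p = 0.000648), and r = 0.97 without subfertile cow 5 and fertile cow 6, the cows farthest from the median of FOS. FOS and JUNB had r = 0.97 and rho = 0.95 (exact p = 5.79e-05, adjusted p = 0.00081), and 0.96 without those cows. FOS and JUN had r = 0.89 and rho = 0.89 (exact p = 0.000463, adjusted p = 0.00305), and 0.89 without them. In fertile cows alone, r with FOS was 0.99 for EGR1, 0.94 for JUNB and 0.84 for JUN (n = 6, exact p = 0.00278, 0.00694 and 0.05, adjusted p = 0.0778, 0.0778 and 0.296). The 6 pairs among FOS, EGR1, JUNB and JUN passed in every one of 19 settings, including each that left out 1 cow, another scaling of the arrays and centring on scan day.

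**Figure D4:**
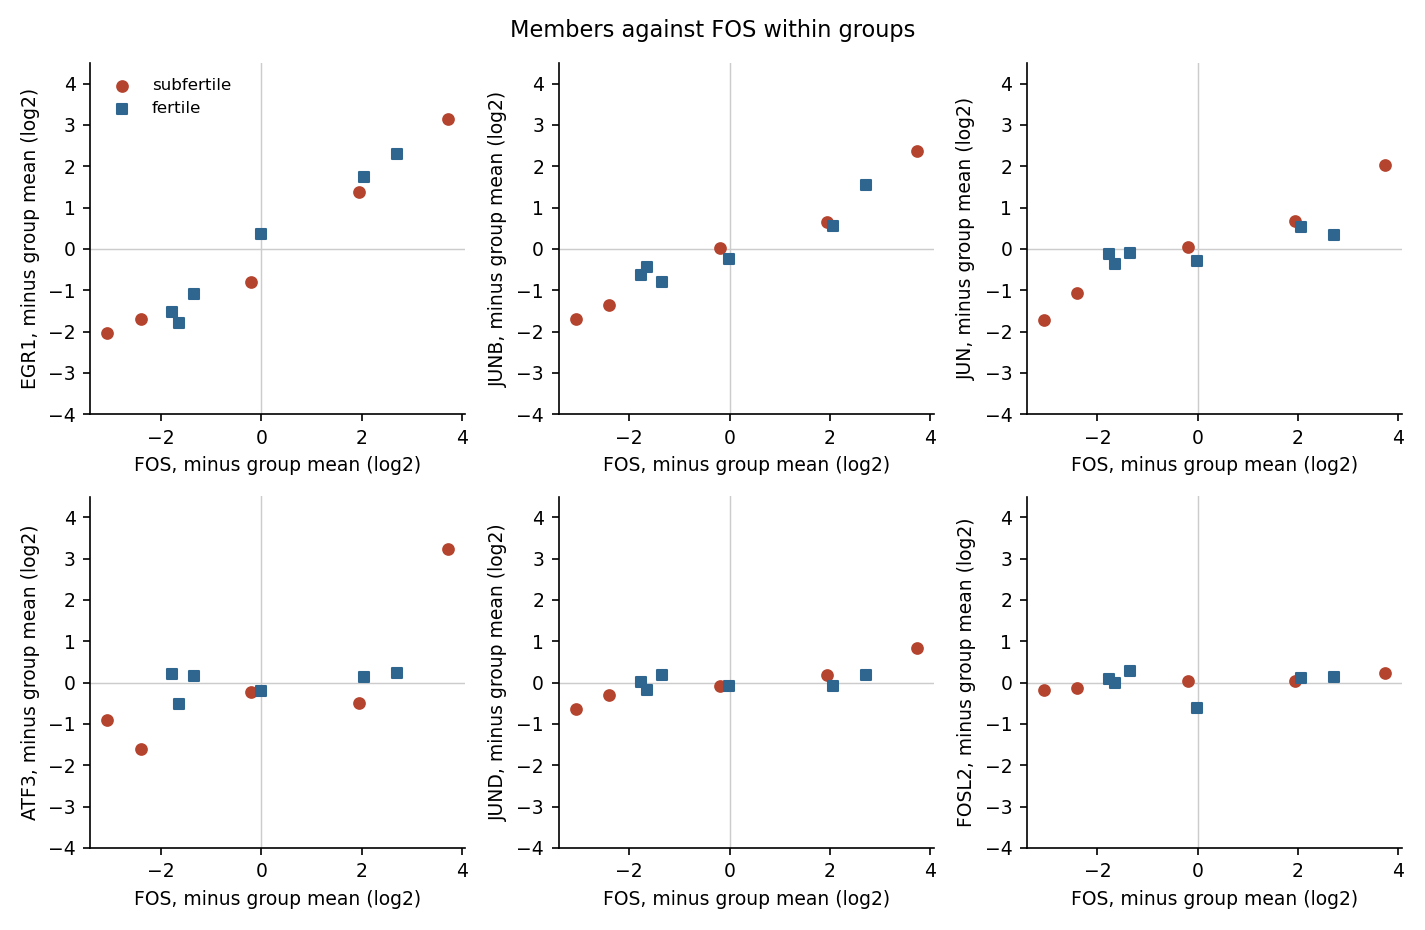
Each panel sets 1 gene (vertical axis, log2, minus the group mean) against FOS (horizontal axis, log2, minus the group mean) over 5 subfertile (red circles) and 6 fertile (blue squares) cows. EGR1, JUNB and JUN follow FOS in both groups, ATF3 departs mainly in subfertile cow 5, JUND rises with FOS over a narrower range, chiefly in subfertile cows, and FOSL2 stays within a narrow range.

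The remaining relations with FOS were weaker and passed in fewer settings. JUND had r = 0.78 with FOS and rho = 0.68 (exact permutation p = 0.0109 and 0.0586, adjusted p = 0.0278 and 0.0965), but 0.61 without subfertile cow 5 and fertile cow 6 (exact p = 0.171) and 0.22 in fertile cows (n = 6, exact p = 0.671). ATF3 had r = 0.69 and rho = 0.68 (exact p = 0.0156 and 0.0196, adjusted p = 0.0284 and 0.0430), and 0.51 without the same cows (exact p = 0.254). Neither passed over the remaining cows, although r stayed positive. Fewer cows also give fewer orders, and the part of this in the loss was not tested. In the 19 settings the pairs passed in 12 and 13. JUN and JUND had r = 0.94 and rho = 0.82 (exact p = 0.00282 and 0.0200, adjusted p = 0.0113 and 0.0430), and 0.72 without subfertile cows 5 and 1 (exact p = 0.0926). By the brightest probe of each gene, subfertile cow 5 was the highest of its group for 8 of 8 genes. Fertile cow 6 was the highest of its group for 5 of 8. At FOSL2 probes 1 and 3, which are not the brightest, subfertile cow 5 was instead the lowest of its group (-5.32 and -2.52). How often these cows were highest over all genes was not counted. The array of subfertile cow 5 was also the dimmest of the 11, with a median signal of 54.3 and 64.5% of probes well above background. On it 76 spots were left out, against 1 to 10 on the other subfertile arrays. Fertile arrays had 2 to 156 left out, the 156 being on that of fertile cow 1, which was also high for FOS. The part of dimness or of left-out spots in the values of these cows was not tested.

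FOSB probe 3 did not pass with FOS (r = 0.54, rho = 0.55, exact permutation p = 0.0894 and 0.0803, adjusted p = 0.119 and 0.113). The dim 5′ probe of FOSB had r = 0.93 and rho = 0.86 with FOS (exact p = 0.000405 and 0.00287), with an adjusted p for r of 0.00132 over the 20 probes of other members set against FOS. That relation includes 7 arrays on which the probe was not well above background. FOSL2 probe 5 had r = 0.34 and rho = 0.54 with FOS (exact p = 0.285 and 0.0922, adjusted p = 0.333 and 0.117). FOSL2 probes 1, 2 and 3 had r of the opposite sign, -0.46, -0.50 and -0.38, and probes 4 and 6 had 0.33 and 0.26, none of which passed (adjusted p from 0.181 to 0.394 over the 20 probes, exact permutation), so the sign of the relation depends on the probe. Its r with JUN was 0.51 over all cows and 0.97 without fertile cows 2 and 3 (exact p = 0.0119 and 0.00139). Those fertile cows were the lowest and the highest of their group for FOSL2 probe 5.

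Cows hybridised on the same slide differed in the same manner. On 4 slides that held 2 cows, the cow with more FOS exceeded its neighbour by 3.40 (fertile cow 1 over 3), 1.63 (fertile cow 2 over 5), 2.21 (subfertile cow 2 over 4) and 1.79 (subfertile cow 5 over 3) on the log2 scale. EGR1 differed by 2.82, 2.16, 0.89 and 1.77 in the same direction, and JUNB by 1.37, 0.20, 1.40 and 1.73. JUN also differed in the direction of FOS on 4 of 4 slides, FOSB, JUND and ATF3 on 3, and FOSL2 on 2. The full FOS range of the subfertile group, -1.15 to 5.65, also lay within 1 scan day.

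Among 18336 other genes, each by its brightest tested probe, the closest to FOS were EGR1 (r = 0.98), JUNB (0.97), IER2 (0.92), H3-5 (0.92), ZCCHC9 (0.92), ABHD10 (0.92), DUSP2 (0.91) and CHMP5 (0.91). The 8 closest to EGR1 were FOS (0.98), DUSP2 (0.94), JUNB (0.93), TC330547 (0.92), ZFP36 (0.91), IER2 (0.91), LRRC8C (0.91) and DUSP1 (0.91), where TC330547 is a transcript name of the array with no gene symbol. In all, 87 genes had r above 0.8 with FOS and 61 with EGR1. None passed after adjustment over the 18336 genes. EGR1 against FOS had an adjusted p of 0.106 (exact permutation), and other genes had an exact p as small or smaller. With 11 cows no exact p below 1.16e-05 is possible. JUN ranked 15th by r with FOS, JUND 113th, ATF3 338th, FOSB 1197th and FOSL2 3327th.

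Other immediate-early genes were described through a list of 32 companions, of which 26 were tested. SGK1, CCN2 and IER3 were higher in subfertile cows, 0 were lower and 23 did not pass (limma, adjusted over all tested probes), beside 14.2% higher and 7.91% lower over 18505 genes at 1 probe each. SGK1, a kinase induced by serum and glucocorticoids, read 0.62, 2.15, 1.88, 2.39 and 1.59 in subfertile cows and 0.69, 0.70, 0.04, 0.67, 0.11 and 0.63 in fertile cows, with overlap through subfertile cow 1 (1.25 ± 0.28, adjusted p = 0.0102). CCN2, a matricellular growth-factor-like protein, differed by 0.72 ± 0.16 (adjusted p = 0.00856), and IER3, a survival gene, by 0.50 ± 0.14 (adjusted p = 0.0291). Of the tested probes, 2 of 2 passed for SGK1, 2 of 2 for CCN2 and 1 of 2 for IER3. With scan day as a random block 0 of the 3 genes passed. IER3 also lost its call with slide as a random block, with the replicate block, with median centring, and without fertile cow 3 or 5 or subfertile cow 3 or 5.

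The companions leaned toward the order of cows seen for FOS, with a median r of 0.57 over 26 genes, against -0.02 over all genes. Those above 0.8 numbered 7: IER2 (0.92), the RNA-decay factor ZFP36 (0.91), the MAP-kinase phosphatases DUSP2 (0.91) and DUSP1 (0.88), KLF4 (0.85), CCN1 (0.82) and IER3 (0.81), of which DUSP2, KLF4, CCN1 and IER3 were picked out after their values were seen. DUSP1 read 2.51, 2.52, 3.17, 2.14 and 4.41 in subfertile cows and 2.65, 2.63, 2.02, 2.45, 1.93 and 3.23 in fertile cows (0.47, limma adjusted p = 0.398). IER2 read 2.30, 2.90, 3.93, 2.52 and 5.08 in subfertile cows and 3.54, 2.63, 2.40, 2.76, 2.42 and 3.24 in fertile cows (0.51, adjusted p = 0.443). Both were highest in subfertile cow 5 and overlapped between groups. ZFP36 differed by 0.39 (adjusted p = 0.524), the nuclear receptor NR4A1 by 0.56 (adjusted p = 0.277), KLF6 by 0.59 (adjusted p = 0.183) and MYC by 0.23 (adjusted p = 0.331). PTGS2, the inducible prostaglandin synthase, differed by -0.67 (adjusted p = 0.335) and had r = -0.12 with FOS. SRF, a factor that drives FOS transcription, had r = -0.69 (exact permutation p = 0.0431, adjusted p = 0.769 over the 18336 genes). SRF was lowest in the cow of each group highest for FOS, at -7.59 in subfertile cow 5 and -7.6 in fertile cow 6. The dim FOSL1 probes read -7.37 and -7.67, and -8.66 and -7.8, in these cows. The part of low signal in the relation of SRF to FOS was not tested.

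**Figure D5:**
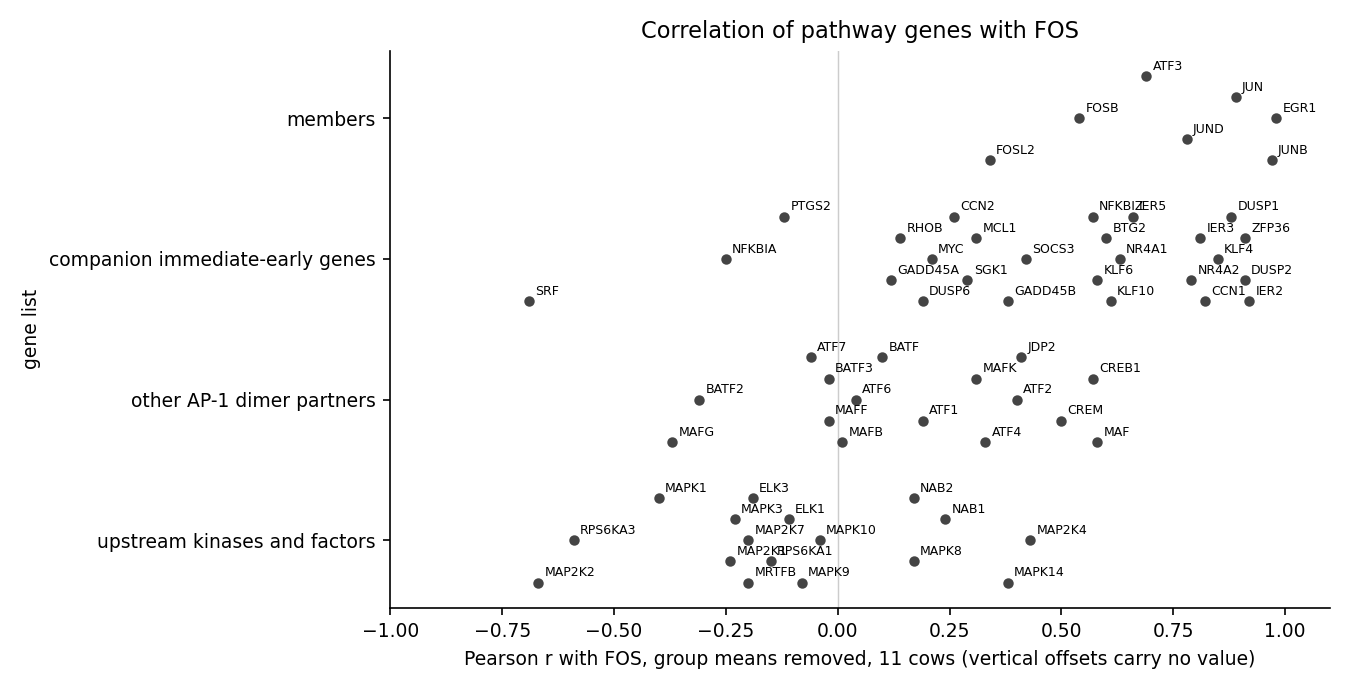
Pearson's r with FOS (horizontal axis, 11 cows, group means removed) for each tested gene of 4 lists (rows), 1 brightest probe a gene; vertical offsets only separate the labels. The members and many companions lie to the right, with 7 companions above 0.8, while the listed dimer partners and upstream kinases are spread around 0.

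Genes listed as acting beside or before AP-1 had r with FOS spread around 0. Of 18 genes listed as other AP-1 dimer partners 16 were tested, with a median r of 0.15 to FOS and none above 0.8. The list holds leucine zipper factors at large, ATF6, CREB1, CREM and ATF1 among them, and pairing with FOS or JUN proteins was not tested. BATF2 (0.51 ± 0.12, adjusted p = 0.0138) and ATF6 (0.49 ± 0.15, adjusted p = 0.0360; limma) were higher in subfertile cows, 0 were lower and 14 did not pass, a share near the 14.2% called higher and 7.91% called lower over all genes. ATF6 passed on 1 of 2 tested probes and BATF2 on 1 of 1. Of 20 upstream kinases and factors 17 were tested, with a median r of -0.15 to FOS. Among these 6 were higher in subfertile cows, 0 were lower and 11 did not pass, again beside 14.2% higher over all genes. They include the ERK kinase MAPK3 (1.21 ± 0.27, adjusted p = 0.00957), its activator MAP2K2 (0.62 ± 0.09, adjusted p = 0.00147), the JNK activator MAP2K4 (0.35 ± 0.08, adjusted p = 0.0126) and the EGR corepressor NAB2 (0.60 ± 0.15, adjusted p = 0.0151). Of the tested probes, 2 of 3 passed for MAPK3, 3 of 3 for MAP2K2, 1 of 3 for MAP2K4 and 3 of 3 for NAB2.

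FOS was also set against 10 lists of cell type markers, each as the mean level of its tested genes, and against 2 measures of the array. None of the 12 relations passed after adjustment (adjusted p from 0.470 to 0.964). The largest r was with the erythroid list, of which 4 of 6 genes were tested (r = 0.67, rho = 0.64, exact permutation p = 0.0447 and 0.0633, and r = 0.58 without the 2 farthest cows). The mean of the erythroid list was -5.17 to -1.52 in subfertile cows and -5.22 to -3.65 in fertile cows, highest in subfertile cow 5. Of the 4 tested genes, the haemoglobin genes HBA, HBB and HBG were highest in subfertile cow 5, and only SLC4A1 was not. HBA read 1.08 and HBG -0.49 in that cow, against at most -0.38 and -3.38 in the other subfertile cows. HBB, a haemoglobin gene chosen after its values were seen, read -7.15, -6.43, -6.18, -7.69 and -1.27 in subfertile cows and -5.76, -6.52, -5.81, -7.04, -4.87 and -6.45 in fertile cows, whereas SLC4A1 was at its subfertile lowest in cow 5, at -5.39, and was higher in subfertile cows (1.31 ± 0.32, limma adjusted p = 0.0148). The share of probes well above background had r = -0.54 with FOS and the log2 75th percentile r = -0.42 (exact p = 0.139 and 0.157). The part of blood, of tissue handling or of RNA quality in the spread of FOS was not tested, since no label records them.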

How the data were processed

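Cy3-labelled total RNA from 11 cows was hybridised to Agilent 1-colour arrays, per the labels' protocols, and the submitters' processing notes name Agilent Feature Extraction 10.5.1.1. The deposited scanner files give a linear processed intensity for each of 45220 spots. A table from the authors gives log2 values for 43713 probes, which match log2 scanner differences within 0.01 for 100% of probes except on fertile cow 1 (17.6%); they served as an alternative. From the scanner files, control and outlier spots (1 to 156 an array) were left out, log2 processed signals minus each array's 75th percentile were taken, and replicate spots averaged. Those probes well above background on at least 5 of 11 arrays were tested with limma 3.58.1 in R 4.3.3, by group only, with Benjamini-Hochberg adjustment over 31877 probes at 0.05. Correlations used values centred on group means and exact permutation within groups (Python 3.11.15, numpy 2.4.6, scipy 1.17.1). Each gene in a list or a correlation is read by its brightest tested probe. Probe names came from the other files for fertile cow 6, whose own names were out of register, and it was given a slide and scan day of its own. Current names came through RefSeq accessions (assembly ARS-UCD2.0, names only) for 20595 of 43653 probes. Members, lists and settings were chosen with earlier results of these data known. All member probes are named; from each further list, up to 4 genes past the threshold in each direction and 7 set companions; and the 8 genes closest to FOS and to EGR1. Replicate numbers in the labels name separate cows. The number of arrays limits the precision. The steps were tested on simulated data.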

Additional observations from a re-analysis of the deposited data

Results flagged for a closer look

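Of 40 groups of values examined for the tested member probes, 3 held an array far from the rest of its group, where chance gives about 1 in 20. ATF3 in subfertile cow 5 was 2.07 on the log2 scale, with the next cow of that group at -1.40. FOSL2 probe 1 in fertile cow 3 was -4.07, with the next at -5.25, and without that cow the FOSL2 probe 1 difference was 0.58 (limma adjusted p = 0.0422) against 0.33 with it (adjusted p = 0.431). FOSL2 probe 5 in fertile cow 2 was 1.93, with the next at 2.53.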

How the results depend on the processing

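The number of member probes higher in subfertile cows, 3 in the reported fit, was 7 with normexp background correction and 1, JUND, with scan day as a random block; the companions higher numbered 3, 6 and 0 in the same order. With normexp the median difference of all 31877 tested probes moved to 0.33 and 17126 probes were called, against 7090. Of these 17126, 14965 were higher in subfertile cows, so the rise from 3 to 7 member probes went with a rise over the whole array. All tested probes split into 4730 higher and 2360 lower as reported, but 3253 and 3135 with quantile normalization and 3202 and 3381 with median centring. Scan day left 959 calls, 770 of them higher, and slide left 3686. Leaving out each cow gave 2 to 4 member probes higher, 2 to 4 companions higher and 0 to 1 companions lower, the 1 being SOCS3 without subfertile cow 5 (-0.93, adjusted p = 0.0476). Correlated pairs numbered 18 as reported and 7 when centred on scan day, over 9 cows with 480 orders. Without 1 cow they numbered 6 to 18, and 9, 8, 8, 7 and 6 without subfertile cows 1 to 5; the cause was not tested, and 10 cows also give fewer orders (14400 or 17280). Their median r was 0.50 to 0.78 over these fits. With the replicate block, 3 member probes and 2 companions were higher and 4747 probes were called in all; the numbers name separate cows, so no pairing was read from them. Dim probes of FOSB and EGR1 and the absent FOSL1 are limited by signal over background.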
